A study of Mus musculus with 22 samples.

Results

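A stretch of distal mouse chromosome 7 holds the decoy TRAIL receptor genes Tnfrsf22 and Tnfrsf23, the related Tnfrsf26, and, nearer the centromere, Pkp3, B4galnt4 and Phrf1. It was followed in testis chromatin of mice that carry Robertsonian translocations, in which a pair of acrocentric chromosomes are joined at their centromeres. The 6 genes fall in 5 windows of 50 kb out of 54520 windows in the series and of 109 windows of chromosome 7 from 140 Mb on. The windows were chosen by their γH2AX values, which differed between the reciprocal crosses 1Rb_M and 1Rb_P, so that this difference is given as a description and carries no test. All 5 windows passed the minimum mean count of 10, and 14 further windows, 3 on each side of each group of member windows and those between them, served as flanks.

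DNA from whole testis was sequenced after chromatin immunoprecipitation for γH2AX or H3.3, and without immunoprecipitation as input. The γH2AX libraries came from mice aged 4 weeks. The 3 libraries of 3Rb mice were F1 (B6.SPRET7MOLF12 x RBF/Dnj), heterozygous for 3 Robertsonian translocations. The 3 libraries of 1Rb_M mice were F1 of CBy.RBF-Rb(8.12)5Bnr/J, named first in the cross, and B6.SPRET7MOLF12. The 3 of 1Rb_P mice were F1 of C57BL/6J, named first, and CBy.RBF-Rb(8.12)5Bnr/J, and both groups were heterozygous for 1 translocation. The 1 library of B6 mice was C57BL/6J, a control, and its antibody had the same clone name (JBW301) with another supplier label. The H3.3 libraries came from mice aged 6 weeks, 3 each of 3Rb and 1Rb mice (the 3Rb and 1Rb_M crosses above) and of Cg controls of strain B6.SPRET7MOLF12. The 3 inputs, 1 each, were Cg at 6 weeks, 1Rb_M at 4 weeks and B6 at 4 weeks. Of these, the 1Rb_M input has the 1Rb_P cross under strain, against its title, and so is called here the input titled 1Rb_M. Counted from the strain labels, 1Rb_M, 1Rb and 3Rb mice had 1 parent of strain B6.SPRET7MOLF12, Cg mice had 2, and 1Rb_P and B6 mice had 0. The direction of the cross and this parent differ together between 1Rb_M and 1Rb_P, and translocations and strain differ together between carriers and Cg, so these cannot be told apart.

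γH2AX is histone H2AX phosphorylated at its C-terminal tail; in spermatocytes it covers chromatin around DNA breaks, unpaired chromosome regions and the silenced X and Y chromosomes. H3.3 is a histone H3 variant that is laid down outside DNA replication, among other places on active genes and on the sex chromosomes in meiosis. TNF-receptor superfamily members bind TNF-like ligands. In the mouse, Tnfrsf22 and Tnfrsf23 encode decoy receptors that bind the death ligand TRAIL (Tnfsf10) without passing on a death signal. Tnfrsf26 lies beside them as a related receptor gene of the same cluster. Genes of the imprinted clusters of distal chromosome 7 lie on both sides of these receptor genes, among them Cdkn1c and Osbpl5. Pkp3 encodes plakophilin 3, an armadillo-repeat protein of desmosomes; B4galnt4 encodes a glycosyltransferase that adds N-acetylgalactosamine to glycan chains; Phrf1 encodes a protein with PHD and RING finger domains that acts as a ubiquitin ligase.

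The genes lie as follows on mm10 (RefSeq, GRCm38.p6). B4galnt4 spans chr7:141060978-141072400 and Pkp3 spans chr7:141078229-141090511, both in window chr7:141050001-141100000, which also reaches Sigirr. Phrf1 spans chr7:141228477-141262751 and runs over 2 windows, its 5′ part in chr7:141200001-141250000 and its 3′ part in chr7:141250001-141300000. Tnfrsf26 (chr7:143607685-143627845) and Tnfrsf22 (chr7:143634808-143649675) share window chr7:143600001-143650000 with the edge of Cars. Tnfrsf23 (chr7:143665807-143686436) lies in window chr7:143650001-143700000 with part of Osbpl5. Each window holds exons, introns and intergenic DNA, so its count cannot be assigned to 1 gene, exon or promoter, and reads from near-identical copies of a sequence cannot be told apart at this resolution.

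Of the 6 genes, 3 matched the RefSeq promoter table (250 bases before to 50 after the start, GRCm38.p6). The promoters of Tnfrsf23 (chr7:143685826-143686125, minus strand) and B4galnt4 (chr7:141060728-141061027, plus strand) are shown because they lie in the windows with the largest γH2AX difference at each of the 2 places; capitals mark CG, read on the strand of the gene, where CG is its own reverse complement. The letters are those of the reference strain.
Tnfrsf23: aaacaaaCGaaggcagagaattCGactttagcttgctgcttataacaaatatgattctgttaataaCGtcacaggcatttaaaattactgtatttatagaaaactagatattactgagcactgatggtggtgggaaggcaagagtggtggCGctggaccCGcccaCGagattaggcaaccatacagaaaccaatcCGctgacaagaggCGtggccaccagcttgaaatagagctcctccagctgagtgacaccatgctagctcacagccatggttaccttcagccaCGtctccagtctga
B4galnt4: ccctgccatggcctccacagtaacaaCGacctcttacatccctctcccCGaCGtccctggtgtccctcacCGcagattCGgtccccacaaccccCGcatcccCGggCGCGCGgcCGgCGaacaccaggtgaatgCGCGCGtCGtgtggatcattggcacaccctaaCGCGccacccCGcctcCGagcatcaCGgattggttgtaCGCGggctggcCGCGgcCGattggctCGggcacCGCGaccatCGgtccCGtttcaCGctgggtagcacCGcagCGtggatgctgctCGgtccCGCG
The Tnfrsf23 promoter holds 9 CG and is 46.3% G and C; 45.8% of 32851 promoters of the same length held at least as many CG. The B4galnt4 promoter holds 37 CG and is 68.0% G and C, a count reached by 5.58% of promoters, and the third matched promoter, of Phrf1, holds 26 CG. The median promoter holds 7 CG and 94.6% hold at least 1.

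Total counts ran from 41278440 to 128348440 in H3.3 libraries, from 21535147 to 56385465 in γH2AX libraries and from 11876426 to 51651953 in inputs. Levels are given in CPM, the count of a window scaled to the library total, with TMM factors in the γH2AX and H3.3 libraries and without them in the inputs, per window of equal length. As a check of the tissue label, since the sex chromosomes of spermatocytes are covered with γH2AX, the X chromosome took 12.3% to 20.6% of γH2AX counts and 3.16% to 3.17% of input counts. The γH2AX libraries 1Rb_M 1 and 2 stood apart, with 12.3% each against 18.9% in 1Rb_M 3. Whole testis holds many cell types, so that more cells with a mark and more of it per cell cannot be told apart. The labels do not state that replicates came from separate animals, so that a p-value here speaks of the spread between these libraries, which may be technical.

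Input DNA, which no antibody had selected, was higher in Cg and in the input titled 1Rb_M than in B6 at the Tnfrsf genes. In the Tnfrsf22 and Tnfrsf26 window the level was 38.5 CPM in the Cg input, 30.9 CPM in the input titled 1Rb_M and 19.9 CPM in the B6 input (1725, 1595 and 236 counts). In the Tnfrsf23 window it was 49.7 CPM in the Cg input, 36.3 CPM in the input titled 1Rb_M and 18.7 CPM in the B6 input (2225, 1874 and 222 counts). Both windows thus had the same order, with Cg highest and B6 lowest, whereas the 6 flanking windows ran from 17.2 to 19.8 CPM in Cg, from 19.9 to 20.9 CPM in the input titled 1Rb_M and from 20.8 to 23.5 CPM in B6.

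The Cg input stood at 1.94 times the B6 input in the Tnfrsf22 and Tnfrsf26 window (95% interval 1.69 to 2.23, exact conditional binomial, counting error only) and at 2.66 times in the Tnfrsf23 window (2.32 to 3.07). Among 53113 windows with enough counts, no other had a ratio as high as the Tnfrsf23 window, and the Tnfrsf22 and Tnfrsf26 window ranked as number 6. They were the 2 windows from 140 Mb on more than 1.5-fold higher, where 0.0791% of all windows were, and 2 further windows there were more than 1.5-fold lower, where 0.0998% of all windows were. The same Tnfrsf windows were more than 1.5-fold higher in the input titled 1Rb_M over B6, where the background was 0.224%, with ratios of 1.55 (1.35 to 1.79) and 1.94 (1.69 to 2.24). For Cg over the input titled 1Rb_M the ratios were 1.248 (1.17 to 1.34) and 1.37 (1.29 to 1.46), under 1.5-fold, where 0.292% of windows passed. In the flanks of the Tnfrsf windows the ratio of Cg to B6 lay between 0.73 and 0.89.

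Input levels at Pkp3, B4galnt4 and Phrf1 lay close together. They were 18.0, 21.0 and 21.98 CPM in the Cg, 1Rb_M-titled and B6 inputs in the Pkp3 and B4galnt4 window. In the Phrf1 5′ window they were 19.2, 20.1 and 24.5 CPM in the same inputs, and in the Phrf1 3′ window 19.3, 20.9 and 18.8 CPM. The ratios of Cg to B6 were 0.82 (0.71 to 0.94), 0.79 (0.69 to 0.90) and 1.03 (0.89 to 1.20). The Cg input was thus below the B6 input in the Pkp3 and B4galnt4 window and in the Phrf1 5′ window, while the interval of the Phrf1 3′ window includes 1.

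**Figure D1:**
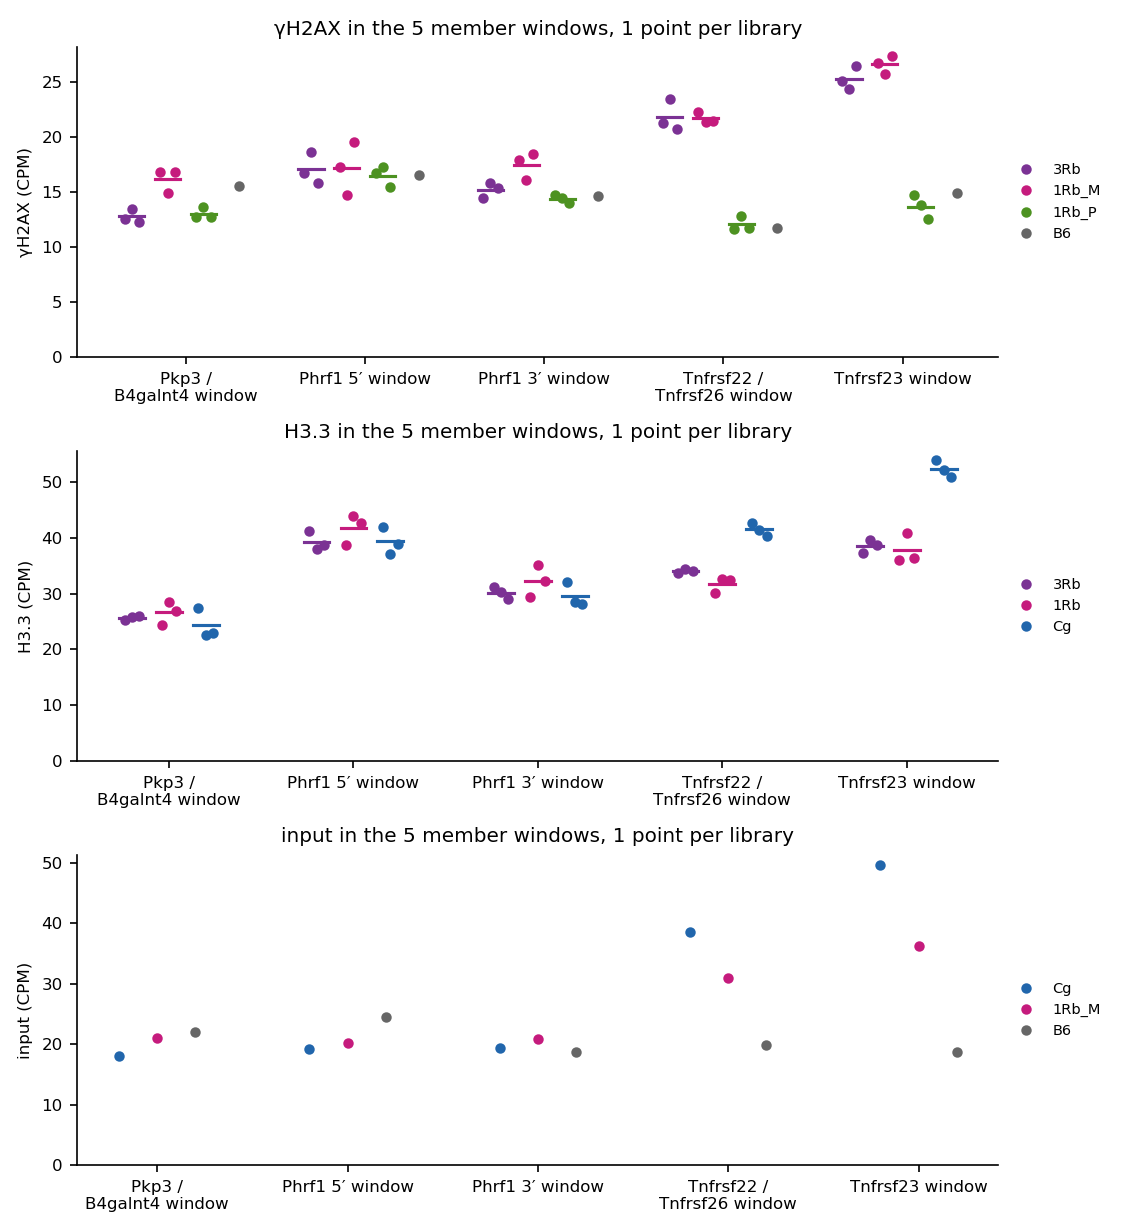
CPM (vertical axes, from 0) in the 5 member windows, 1 point per library, with a short line at the mean of groups of 3; γH2AX above, H3.3 in the middle, input below. In the Tnfrsf22 and Tnfrsf26 window and the Tnfrsf23 window, γH2AX of 3Rb and 1Rb_M lies above 1Rb_P and B6, H3.3 of 3Rb and 1Rb lies below Cg, and the inputs run from Cg down to B6, while in the other 3 windows H3.3 groups overlap.

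γH2AX at the Tnfrsf genes split the groups in 2. In the Tnfrsf22 and Tnfrsf26 window the level was 21.2, 23.5 and 20.7 CPM in 3Rb, 22.2, 21.3 and 21.5 CPM in 1Rb_M, 11.6, 12.8 and 11.7 CPM in 1Rb_P and 11.7 CPM in B6. At Tnfrsf23 it was 25.0, 24.4 and 26.4 CPM in 3Rb, 26.7, 25.7 and 27.4 CPM in 1Rb_M, 14.7, 13.8 and 12.5 CPM in 1Rb_P and 14.9 CPM in B6. In both windows every 3Rb and 1Rb_M library was above every 1Rb_P and B6 library, and 3Rb and 1Rb_M overlapped. As 1Rb_M against 1Rb_P chose the windows, this gap is a description, and the share of all windows with such a gap is not given here. The 6 high libraries are those with 1 parent of strain B6.SPRET7MOLF12 and the 4 low ones those with 0. The library 1Rb_M 3, whose X share was like that of the other groups, was not the lowest of the 3 in either window.

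The difference between 1Rb_M and 1Rb_P, by which the windows were chosen, was 0.85 ± 0.07 on the log2 scale (SE, edgeR fit) in the Tnfrsf22 and Tnfrsf26 window and 0.96 ± 0.08 in the Tnfrsf23 window, or 1.95-fold. The other windows just around them did not stand as far apart: the 6 flanks ranged from 0.00 to 0.26. Between 3Rb and 1Rb_P, which shares the 1Rb_P libraries with that contrast, the differences were 0.86 ± 0.07 and 0.89 ± 0.08. Between 3Rb and 1Rb_M, which shares the 1Rb_M libraries, they were 0.01 ± 0.06 and -0.07 ± 0.08.

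γH2AX at Pkp3, B4galnt4 and Phrf1 had another pattern, with every 1Rb_M library above every 3Rb and 1Rb_P library in 2 of the 3 windows. In the Pkp3 and B4galnt4 window it was 12.6, 13.5 and 12.3 CPM in 3Rb, 16.8, 14.9 and 16.8 CPM in 1Rb_M, 12.7, 13.7 and 12.7 CPM in 1Rb_P and 15.6 CPM in B6. The B6 library lay within the range of 1Rb_M here, unlike in the Tnfrsf windows, and 1Rb_M 3 was as high as 1Rb_M 1. In the Phrf1 3′ window it was 14.4, 15.8 and 15.3 CPM in 3Rb, 17.9, 16.0 and 18.4 CPM in 1Rb_M, 14.7, 14.5 and 14.0 CPM in 1Rb_P and 14.6 CPM in B6. In the Phrf1 5′ window the means were 17.0 ± 1.5 CPM in 3Rb, 17.2 ± 2.4 CPM in 1Rb_M and 16.5 ± 0.9 CPM in 1Rb_P (SD, n = 3 each), and the groups overlapped. As 1Rb_M against 1Rb_P chose the windows, the gaps in the other windows are descriptions. The share of all windows with such gaps is not given here.

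The differences between 1Rb_M and 1Rb_P were 0.31 ± 0.06 in the Pkp3 and B4galnt4 window, 0.28 ± 0.06 in the Phrf1 3′ window and 0.06 ± 0.08 in the Phrf1 5′ window (log2, SE). Those of 3Rb against 1Rb_M were -0.34 ± 0.06, -0.20 ± 0.06 and -0.01 ± 0.08 in the same order, and those of 3Rb against 1Rb_P were -0.03 ± 0.06, 0.08 ± 0.06 and 0.05 ± 0.08. Across the 8 flanks of these windows the difference between 1Rb_M and 1Rb_P was above 0 in 8, with a median of 0.16 and a range of 0.09 to 0.27. The 102 other tested windows from 140 Mb on had a median of 0.16 too, and 96 of the 102 were above 0. Over all tested windows 26695 of 53118 were above 0, with a median of 0.0006. On the whole of chromosome 7, 2292 of 2845 were above 0, with a median of 0.08.

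H3.3, which was not used to choose the windows, was lower in both carrier groups than in Cg at the Tnfrsf genes. In the Tnfrsf22 and Tnfrsf26 window the level was 33.6, 34.4 and 34.1 CPM in 3Rb and 30.1, 32.6 and 32.5 CPM in 1Rb, against 42.7, 41.4 and 40.4 CPM in Cg. At Tnfrsf23 it was 37.2, 39.7 and 38.7 CPM in 3Rb and 36.1, 40.9 and 36.3 CPM in 1Rb, against 54.0, 52.1 and 50.9 CPM in Cg. Every 3Rb and 1Rb library was below every Cg library in both windows. The share of all windows with such a gap is not given here, so the gap is a description.

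In 1Rb against Cg, H3.3 fell by 0.39 ± 0.06 on the log2 scale (SE) in the Tnfrsf22 and Tnfrsf26 window (adjusted p = 6.49e-06, edgeR's quasi-likelihood test with Benjamini-Hochberg adjustment over all windows). In the Tnfrsf23 window it fell by 0.47 ± 0.06 (adjusted p = 4.35e-07, same test). In 3Rb against Cg it fell by 0.29 ± 0.06 (adjusted p = 0.000187) and by 0.44 ± 0.06 (adjusted p = 2.01e-07) in the same windows and by the same edgeR fit. Both contrasts share the Cg libraries. Thus 2 of 5 member windows were called lower in each, where 2.62% of all windows were called lower in 1Rb and 6.16% in 3Rb, and 3.71% and 9.51% in either direction.

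From 140 Mb on, no further window was lower than Cg in either contrast among 102 tested (edgeR; 20 had an unadjusted p below 0.05 in either direction in 1Rb and 16 in 3Rb), while 4 were higher in 1Rb and 9 in 3Rb, against a background of 1.08% and 3.34% called higher. DESeq2 called 5 and 6 of these 102 in either direction. The 6 flanks of the Tnfrsf windows had H3.3 differences between -0.01 and 0.09 in 1Rb against Cg and between -0.06 and 0.03 in 3Rb against Cg. The differences at Tnfrsf22, Tnfrsf26 and Tnfrsf23 therefore ended within 1 window on either side.

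3Rb and 1Rb mice did not differ in H3.3 beyond the threshold in any member window. In 3Rb against 1Rb the difference was 0.10 ± 0.06 in the Tnfrsf22 and Tnfrsf26 window (adjusted p = 0.398, edgeR) and 0.03 ± 0.06 in the Tnfrsf23 window (adjusted p = 0.839). Of the 5 windows, 0 were called by edgeR and 0 by DESeq2, with 0 at an unadjusted p under 0.05, where 6.1% of all windows were called in either direction.

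At Pkp3, B4galnt4 and Phrf1 the H3.3 levels of the groups overlapped. The means were 25.7 ± 0.4 CPM in 3Rb and 26.6 ± 2.0 CPM in 1Rb, against 24.3 ± 2.7 CPM in Cg (SD, n = 3 each), in the Pkp3 and B4galnt4 window. The Phrf1 5′ window was the richest of the 3, with 39.3 ± 1.7 CPM in 3Rb and 41.8 ± 2.7 CPM in 1Rb, against 39.4 ± 2.5 CPM in Cg. The Phrf1 3′ window had 30.2 ± 1.0 CPM in 3Rb and 32.2 ± 2.9 CPM in 1Rb, against 29.6 ± 2.2 CPM in Cg. None of the 3 windows passed the test in any H3.3 contrast with edgeR, where differences ran from -0.10 to 0.12 and adjusted p from 0.467 to 0.952. Without Cg replicate 1, the deepest library, the Pkp3 and B4galnt4 window was called higher in 1Rb than in Cg (0.23, adjusted p = 0.0071) and so was the Phrf1 3′ window (0.19, adjusted p = 0.0486), in the same edgeR fit. In that run 31 windows from 140 Mb on were called, against 4 higher and 2 lower among 107 with all libraries. These calls were thus not particular to the members, and the share of all windows called in that run is not given here.

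**Figure D2:**
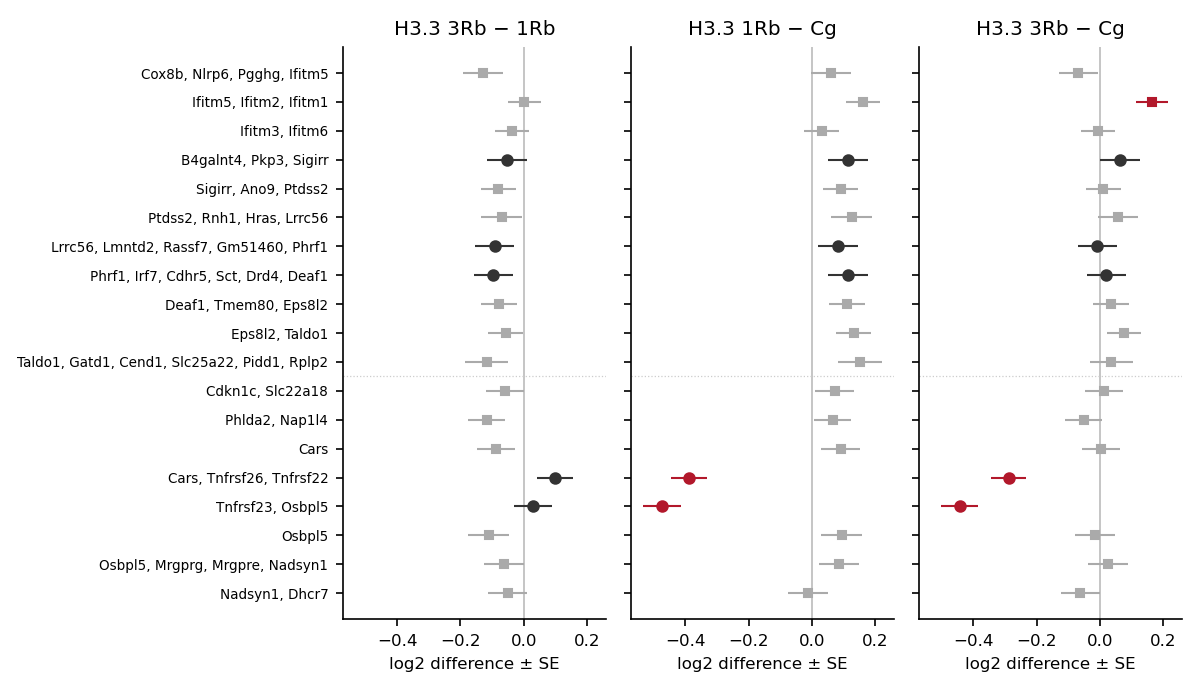
Log2 difference in H3.3 (horizontal axes, mean ± SE of the edgeR fit) for the 19 member and flanking windows, named by their genes in chromosomal order from top to bottom; circles are member windows, squares flanks, and red marks an adjusted p under 0.05. The 2 Tnfrsf windows lie at -0.39 and -0.47 in 1Rb against Cg and at -0.29 and -0.44 in 3Rb against Cg, with their flanks between -0.06 and 0.09.

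The H3.3 differences can be set beside those of the inputs in the same windows. Between 1Rb and Cg, H3.3 differed by -0.39 in the Tnfrsf22 and Tnfrsf26 window, and the input titled 1Rb_M differed from the Cg input by -0.32 (log2, 95% interval -0.42 to -0.22). In the Tnfrsf23 window the H3.3 difference was -0.47 and the input difference -0.45 (-0.54 to -0.36). With H3.3 of 1Rb divided by the input titled 1Rb_M, which came from mice aged 4 weeks and has the 1Rb_P cross under strain, and H3.3 of Cg divided by the Cg input, the difference between 1Rb and Cg was -0.07 and -0.02 in these windows. With 1 input library per group these values have no test.

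H3.3 over these inputs was 0.04 ± 0.06 and 0.06 ± 0.10 (log2, SD, n = 3) in 1Rb in the Tnfrsf22 and Tnfrsf26 window and the Tnfrsf23 window, and 0.11 ± 0.04 and 0.07 ± 0.04 in Cg. The 6 flanks had 0.26 to 0.81 in 1Rb and 0.27 to 0.91 in Cg, so the Tnfrsf windows held less H3.3 per input than each of their flanks. The Phrf1 5′ window had 1.05 ± 0.09 in 1Rb and 1.03 ± 0.09 in Cg, the highest of the 5 members, and the Pkp3 and B4galnt4 window 0.34 ± 0.11 and 0.43 ± 0.16.

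γH2AX over input did not put either Tnfrsf window above all of its flanks. In 1Rb_M over the input titled 1Rb_M it was -0.51 ± 0.03 in the Tnfrsf22 and Tnfrsf26 window and -0.45 ± 0.05 in the Tnfrsf23 window (log2, SD, n = 3), against -0.47 to -0.23 in the 6 flanks. In B6 over its own input it was -0.76 and -0.33 in the same windows, against -0.74 to -0.19 in the flanks (1 library each). The γH2AX difference of 1.95-fold between 1Rb_M and 1Rb_P in the Tnfrsf23 window stood beside an input difference of 1.94-fold between the input titled 1Rb_M and the B6 input. In the Tnfrsf22 and Tnfrsf26 window the 2 were less alike on the CPM scale: the γH2AX difference exceeded the input difference, which was 1.55-fold. That order depended on the scaling. Over the median of the 6 flanks, γH2AX was 1.44 in 1Rb_M and 0.87 in 1Rb_P. The input titled 1Rb_M was 1.54 and the B6 input 0.90, a slightly larger fold difference. In the Tnfrsf23 window these values were 1.77 and 0.99 for γH2AX and 1.805 and 0.85 for the inputs. Over these inputs, γH2AX of 1Rb_M minus that of B6 was 0.25 in the Tnfrsf22 and Tnfrsf26 window and -0.12 in the Tnfrsf23 window (log2). The Osbpl5 flank next to the Tnfrsf23 window had -0.47 in 1Rb_M and -0.74 in B6, a gap like that of 0.25. The gaps of the other flanks were smaller. No input titled 1Rb_P or 3Rb was used here, so how much of the γH2AX difference between 1Rb_M and 1Rb_P lies in the input was not tested.

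**Figure D3:**
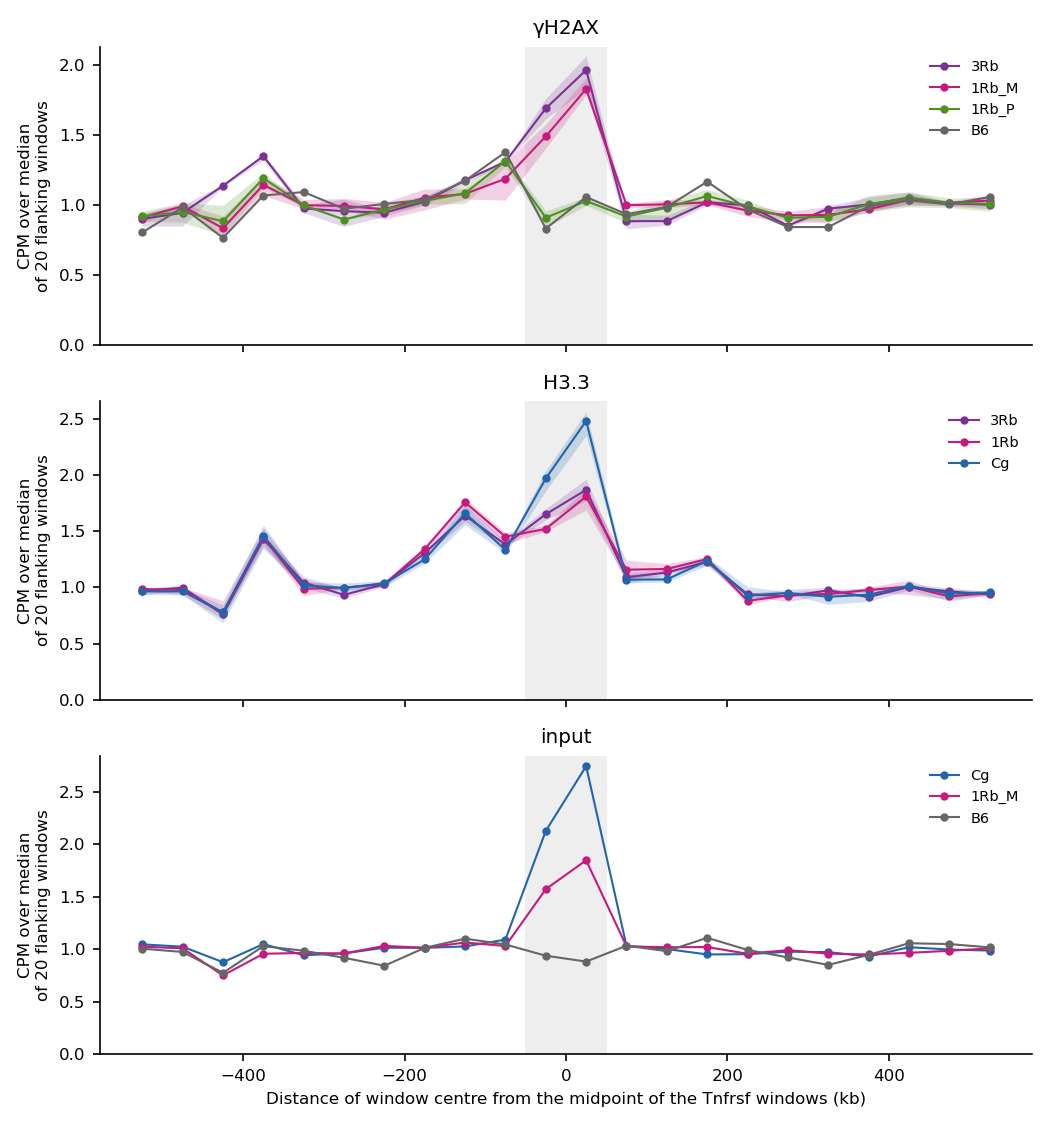
Level over the median of the 20 flanking windows of the same library (vertical axes, from 0) by distance of the window centre from the midpoint of the Tnfrsf windows in kb; lines are group means, bands the range of 3 libraries, and the grey block holds the 2 Tnfrsf windows. The Cg and 1Rb_M-titled inputs rise in those 2 windows and lie near 1 beside them, and the B6 input stays near 1 throughout; γH2AX of 3Rb and 1Rb_M rises at the same place. H3.3 of Cg is highest there, at 1.97 and 2.48, while H3.3 is also raised beside the block, at 1.64 in 3Rb, 1.76 in 1Rb and 1.66 in Cg 125 kb before the midpoint. γH2AX is raised beside the block too, at 1.31 in 3Rb, 1.19 in 1Rb_M, 1.32 in 1Rb_P and 1.38 in B6 75 kb before the midpoint.

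A local ratio, the level of a window over the median of its 6 flanking windows in the same library, needs no scaling between libraries and was added after the data were seen. For inputs it was 2.09 in Cg, 1.54 in the input titled 1Rb_M and 0.90 in B6 in the Tnfrsf22 and Tnfrsf26 window (95% intervals of the window's counting error 1.99 to 2.19, 1.46 to 1.61 and 0.79 to 1.03). The steps between neighbours in that order were 0.55 from Cg to 1Rb_M-titled and 0.63 from 1Rb_M-titled to B6. In the Tnfrsf23 window the input ratios were 2.69, 1.805 and 0.85 in the same order (2.58 to 2.81, 1.72 to 1.89 and 0.74 to 0.97), with steps of 0.89 and 0.96. The input titled 1Rb_M was thus close to midway between Cg and B6 in both windows. Its title gives 1 parent of strain B6.SPRET7MOLF12 and its strain label gives 0, and which of them is right cannot be told from the labels.

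The local ratio of γH2AX in the Tnfrsf22 and Tnfrsf26 window was 1.65 ± 0.07 in 3Rb, 1.44 ± 0.10 in 1Rb_M and 0.87 ± 0.07 in 1Rb_P (SD, n = 3 each), and 0.76 in B6. At Tnfrsf23 it was 1.92 ± 0.13 in 3Rb, 1.77 ± 0.10 in 1Rb_M and 0.99 ± 0.04 in 1Rb_P, and 0.96 in B6. The 6 libraries with 1 B6.SPRET7MOLF12 parent ran from 1.36 to 1.71 and from 1.69 to 2.02 in the 2 windows, and the 4 with 0 from 0.76 to 0.94 and from 0.94 to 1.02. The 2 sets did not overlap, as in the CPM values from which the windows were chosen, so this too is a description.

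The local ratio of H3.3 in the Tnfrsf22 and Tnfrsf26 window was 1.304 ± 0.06 in 3Rb and 1.17 ± 0.03 in 1Rb, against 1.59 ± 0.11 in Cg (SD, n = 3 each). At Tnfrsf23 it was 1.48 ± 0.10 in 3Rb and 1.39 ± 0.09 in 1Rb, against 1.998 ± 0.13 in Cg. The next comparison of local ratios leaves aside the input with unlike labels. Within H3.3 and between Cg and B6 inputs, every library with more B6.SPRET7MOLF12 parents exceeded every library with fewer in both Tnfrsf windows. In H3.3 the number of such parents differs together with the translocations, and the inputs are 1 library each. The same order held within γH2AX, where the difference between 1Rb_M and 1Rb_P had chosen the windows. The share of all windows with this order is not given here, so it is a description and its cause was not tested. At Pkp3, B4galnt4 and Phrf1 the local ratios of the inputs stayed between 0.93 and 1.21, and those of γH2AX in 1Rb_M were 0.99 ± 0.04, 1.04 ± 0.06 and 1.065 ± 0.03 in the Pkp3 and B4galnt4, Phrf1 5′ and Phrf1 3′ windows, against 0.89 ± 0.06, 1.13 ± 0.06 and 0.99 ± 0.02 in 1Rb_P. On this scale the mean γH2AX difference of 1Rb_M against 1Rb_P over these 3 windows was 0.05 (log2), against 0.22 on the CPM scale.

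**Figure D4:**
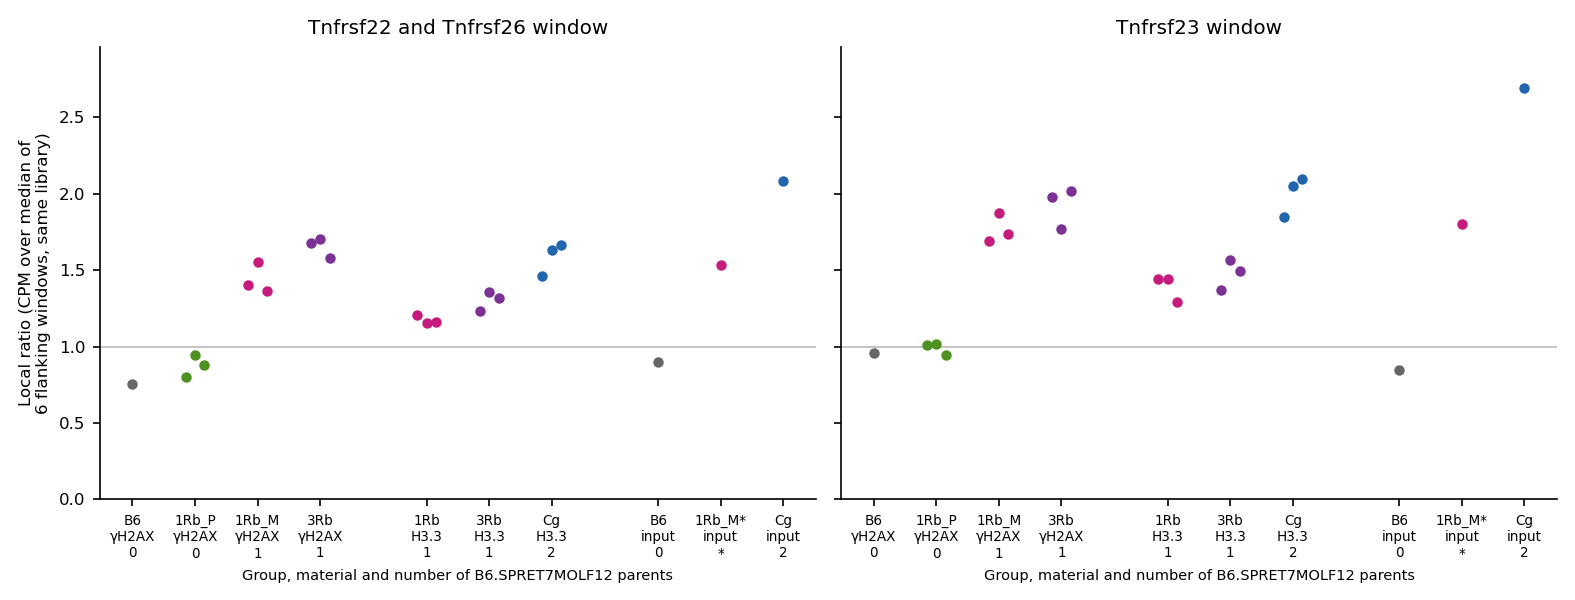
Local ratio (vertical axis, from 0; the grey line marks 1) of each library in the 2 Tnfrsf windows, ordered within each material by the number of parents of strain B6.SPRET7MOLF12, the lowest line of each label; the star marks the input whose title and strain label differ. Points run from 0.76 for γH2AX in B6 to 2.09 for the Cg input on the left and from 0.85 for the B6 input to 2.69 for the Cg input on the right.

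Over all 22 libraries, with log2 CPM centred within γH2AX, H3.3 and input, the window of distal chromosome 7 most like the Tnfrsf22 and Tnfrsf26 window was the Tnfrsf23 window (Pearson r = 0.97). Of 53118 windows, 13 had an r of at least 0.9, the Tnfrsf22 and Tnfrsf26 window itself included. The 5 most alike outside distal chromosome 7 that overlap a protein-coding gene all lay on chromosome 5, between positions 14900001 and 15550000: those of Gm21190 (r = 0.96), Gm21149 (0.96), Gm10354 (0.95), Gm9758 with Speer4e (0.95) and Gm17019 (0.94). The points share their libraries and these are descriptions with no p. Both Tnfrsf windows were chosen by γH2AX libraries that are among the 22, so their likeness follows in part from the choice. In the Gm21190 window γH2AX averaged 60.3 CPM in 3Rb, 58.0 CPM in 1Rb_M, 32.7 CPM in 1Rb_P and 38.4 CPM in B6, H3.3 averaged 79.2 CPM in 3Rb and 69.0 CPM in 1Rb, against 83.4 CPM in Cg, and the inputs had 91.0 CPM in Cg, 75.9 CPM in the input titled 1Rb_M and 52.1 CPM in B6. By group means, 3Rb and 1Rb_M lay above 1Rb_P and B6 in γH2AX, and 3Rb and 1Rb lay below Cg in H3.3. The inputs ran from Cg down to B6. This window was picked for its likeness over the same libraries, so the shared order follows from the choice and is no further result. On distal chromosome 7 the Phrf1 3′ window had an r of 0.43.

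Other genes of the pathways and of the neighbourhood were read from lists, with the member windows left out. For the TRAIL and death receptor pathway (14 genes in 19 windows, among them the ligand gene Tnfsf10, the death receptor gene Tnfrsf10b and the caspase gene Casp8), 0 windows were called by edgeR or by DESeq2 in 1Rb against Cg, in 3Rb against Cg and in 3Rb against 1Rb for H3.3, with 1, 1 and 2 of unadjusted p below 0.05. Over all windows 3.71%, 9.51% and 6.1% were called by edgeR in these 3 contrasts, and 12.9%, 23.2% and 15.7% had an unadjusted p below 0.05. For 18 genes of the imprinted clusters of distal chromosome 7 (19 windows, among them H19, Igf2, Kcnq1 and Cdkn1c) H3.3 gave 0 calls by either tool in the same 3 contrasts, with 1, 2 and 1 at an unadjusted p under 0.05. For 7 plakophilin and desmosome genes (15 windows, among them Pkp1 and Dsp), the relatives and partners of Pkp3, it also gave 0 calls by either tool, with 0, 0 and 2. For 49 other neighbours of distal chromosome 7 (46 windows) it gave 0, 1 and 0 calls by edgeR, with 6, 3 and 4 of unadjusted p below 0.05, whereas DESeq2 called 0; the 1 was the window of the interferon-induced membrane protein gene Ifitm1, a flank of the Pkp3 and B4galnt4 window, higher in 3Rb than in Cg by 0.16 (adjusted p = 0.033, edgeR). The median H3.3 differences in 1Rb and in 3Rb against Cg were 0.00 and -0.02 for the TRAIL list, 0.01 and -0.03 for the imprinted clusters, -0.03 and -0.05 for the desmosome genes and 0.04 and -0.01 for the other neighbours, beside 0.00 and 0.00 over all windows.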

How the data were processed

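The deposited files hold whole-number read counts per window of 50 kb, 1 file per library, on mm10. Per the submitters' processing notes the authors used CASAVA 1.8 and BWA; settings, filters on repeated or multiply mapped reads and counting rules are not given in the sources used here, and they decide how reads of repeated or strain-specific DNA enter a window. Windows averaging 10 counts or more in the libraries of a mark were fitted with edgeR 4.0.16 in R 4.3.3 (TMM, quasi-likelihood test, Benjamini-Hochberg over all windows, adjusted p under 0.05), all 9 H3.3 or all 9 γH2AX libraries (without B6) together. The steps were tested on simulated data. DESeq2 1.42.0, other filters and scalings, and leaving out each library were alternatives. Inputs, 1 library each, were compared as ratios with exact 95% conditional binomial intervals (scipy 1.17.1) that cover counting error only. The members and lists were chosen with earlier results of these data known. Genes named are the 6 members, the 3 windows on each side, up to 6 list windows per H3.3 contrast and the 5 windows most alike. Windows were matched to genes by RefSeq GRCm38.p6.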

Additional observations from a re-analysis of the deposited data

How the results depend on the processing

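At the Tnfrsf windows the H3.3 calls in 1Rb and 3Rb against Cg held in each alternative run. Without Cg replicate 1, called member windows in 1Rb against Cg numbered 4 in place of 2. Leaving out 1 library gave 2 to 4 called member windows and 4 to 31 called windows from 140 Mb on (6 with all) in 1Rb against Cg, the 31 also without Cg replicate 1, and 8 to 15 (11) in 3Rb against Cg, with 2 called members throughout. In 3Rb against 1Rb it gave 0 to 7 (1), the 7 without 1Rb replicate 1 and 2 without Cg replicate 1, and 0 under library totals, under DESeq2 and with the replicate number as a block. With that replicate block the 3 H3.3 contrasts called 2, 2 and 0 members and the Tnfrsf windows differed in 1Rb against Cg by -0.39 and -0.47; same-numbered libraries correlated with r from -0.57 to 0.14 (H3.3) and from -0.33 to 0.32 (γH2AX), so the numbers do not pair the samples. Uncalled differences near 0 changed sign: in 3Rb against Cg the Phrf1 5′ window (-0.01) was 0.0035 under library totals and ran from -0.056 to 0.041 on leaving out 1 library, the Phrf1 3′ window from -0.016 to 0.087; in 3Rb against 1Rb the Tnfrsf23 window ran from -0.0079 to 0.080. The mean γH2AX difference of the Tnfrsf windows in 1Rb_M against 1Rb_P (0.91) was 0.99 under library totals, 0.78 as a local ratio and 0.77 with 10 flanks on each side, and 0.87 to 0.93 on leaving out 1 library; in 3Rb against 1Rb_M (-0.03) it was -0.13 under library totals. For Pkp3, B4galnt4 and Phrf1 (0.22) it was 0.047 and 0.049 with these flanks, and 0.16 to 0.29 on leaving out 1 library. The mean H3.3 difference of the Tnfrsf windows in 1Rb against Cg (-0.43) was -0.043 over the inputs titled 1Rb_M and Cg. As local ratios with 3 or 10 flanks, Cg over B6 became 2.31 and 2.27 in the Tnfrsf22 and Tnfrsf26 window and 3.17 and 3.11 in the Tnfrsf23 window, and Cg over the input titled 1Rb_M 1.36 and 1.35, and 1.49 and 1.49. At the lower fold planned as alternative, 26 distal windows in place of 2 were lower in Cg over B6, 5 in place of 1 in 1Rb_M-titled over B6, and 1 higher and 2 lower in place of 0 in Cg over 1Rb_M-titled. Local ratios and values over input were chosen after seeing the data; the cause of these changes was not tested. Inputs have 1 library per group, so that their spread between animals is unknown, and the B6 input, with 203 counts in the median window, sets the width of each ratio that uses it.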

Other observations

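The last window of chromosome 7 to hold counts enough, chr7:145300001-145350000, with the genes Mrgprf and Mrgprd, had the opposite order to the Tnfrsf windows. It was chosen after its values were seen. The inputs held 43.5 CPM in Cg, 61.7 CPM in the input titled 1Rb_M and 107 CPM in B6, so that Cg stood at 0.41 times B6 (95% interval 0.38 to 0.44, counting error only). H3.3 averaged 90.9 ± 2.6 CPM in 3Rb and 93.6 ± 8.1 CPM in 1Rb, against 73.0 ± 1.5 CPM in Cg (SD, n = 3 each), and rose by 0.32 ± 0.07 in 3Rb and 0.36 ± 0.07 in 1Rb on the log2 scale (adjusted p = 0.000542 and 0.000307, edgeR). γH2AX averaged 41.5 ± 2.7 CPM in 3Rb, 50.6 ± 11.9 CPM in 1Rb_M and 57.2 ± 6.7 CPM in 1Rb_P, and was 73.0 CPM in B6.

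Of the other windows from 140 Mb on, the olfactory receptor windows of Olfr530 (chr7:140350001-140400000) and Olfr536 (chr7:140500001-140550000) also had more H3.3 in both carrier groups than in Cg. At Olfr530 the means were 11.8 ± 0.4 CPM in 3Rb and 11.9 ± 0.5 CPM in 1Rb, against 9.08 ± 0.39 CPM in Cg (SD, n = 3 each), and the inputs held 12.6 CPM in Cg, 14.8 CPM in the input titled 1Rb_M and 17.0 CPM in B6. At Olfr536 they were 12.2 ± 0.7 CPM in 3Rb and 12.1 ± 0.2 CPM in 1Rb, against 10.3 ± 0.8 CPM in Cg, and the inputs held 13.9 CPM in Cg, 14.7 CPM in the input titled 1Rb_M and 18.9 CPM in B6. The Cg input was the lowest of the 3 in both windows, as it was in 13 of the 14 flanks of the member windows.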
